A study of Mus musculus with 16 samples.

Results

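The 80 cytosolic ribosomal protein genes of the dorsal raphe nucleus (DRN) were followed gene by gene through 16 RNA-seq libraries. They were taken by symbol, as genes named Rpl or Rps with a number, together with Rpsa, Rplp0, Rplp1 and Rplp2, and they made up 80 of the 14504 genes listed. Of these, 33 encode proteins of the small (40S) subunit or their close relatives and 47 those of the large (60S) subunit. The symbol rule did not use any measured value. The set is not complete, because Rpl24, Rpl3l, Rpl10l and Rpl39l are in the mouse annotation but were not among the genes analyzed. The tissue was the DRN of male C57BL/6 mice, from which polyA RNA was sequenced. Control mice (con) gave 3 saline and 3 dexamethasone (DEX) libraries. Mice stressed for 30 days and classed as passive coping (PS, labeled dep1) gave 2 saline and 3 DEX libraries. Stressed mice classed as active coping (AS, labeled dep2) gave 3 saline and 2 DEX libraries. DEX, a synthetic glucocorticoid, was given at 2 mg/kg, and tissue of all groups was taken 6 h after the injection. The study had left out DEX-treated PS and AS samples with low Tph2, and further libraries it describes, in saline groups too, were not analyzed here.

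Ribosomal proteins bind the ribosomal RNAs and with them form the particle that translates mRNA. Their mRNAs belong to the class that begins with a terminal oligopyrimidine tract, a run of C and T letters at the very start of the transcript through which the mTORC1 kinase controls their translation. In the brain they are among the most abundant mRNAs of neurons and glia, and in bulk tissue fewer cells of a type cannot be told apart from less RNA per cell.

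The genes were abundant in every library. Together they took between 1.16% of the reads (PS_dex_6) and 2.50% (AS_sal_40), with library totals of 38207157 to 62447298 reads in the listed genes. Per kilobase of transcript the highest mean levels were those of Rplp1, a protein of the acidic stalk of the large subunit (32037 normalized counts per kb), Rps15 (28353), Rpl3 (23374), Rpl9 (21780) and Rps14 (19100), against a median of 10011. The lowest were Rps10 (177), Rpl13a (514) and Rps27l (988), a relative of Rps27. In the GENCODE vM21 annotation exons of Rps10 are shared with RPS10-NUDT3 on the same strand, and exons of Rpl13a with Gm45713. Neither of these neighbors was analyzed here, and how reads in shared exons were counted is not given in the sources used here, so the levels of Rps10 and Rpl13a are uncertain. The same holds in part for most of the other genes. Of all 75-base windows of a gene's transcripts, a median of 41.1% also occurred in another annotated gene, and as many as 98.5% in Rps27, because many ribosomal protein genes have processed copies in the genome.

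The letters around the annotated start are shown for 8 of the genes, chosen because their values are described below. Each sequence is 30 bases of RefSeq on GRCm38.p6, read 5′ to 3′ on the gene's strand from 15 bases before to 15 bases after the start. Capitals mark the longest run of C and T that covers the start or lies within 10 bases of it.
Rps6 (chr4:86857353-86857382, minus strand): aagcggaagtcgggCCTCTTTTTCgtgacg
Rpl7a (chr2:26910792-26910821, plus strand): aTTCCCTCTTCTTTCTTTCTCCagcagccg
Rpl18 (chr7:45718056-45718085, plus strand): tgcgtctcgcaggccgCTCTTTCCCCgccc
Rpl22l1 (chr3:28805493-28805522, plus strand): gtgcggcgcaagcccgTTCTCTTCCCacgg
Rps10 (chr17:27635230-27635259, minus strand): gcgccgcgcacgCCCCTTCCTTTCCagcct
Rpl39 (chrX:37085208-37085237, minus strand): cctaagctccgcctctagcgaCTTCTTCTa
Rpl5 (chr5:107900513-107900542, plus strand): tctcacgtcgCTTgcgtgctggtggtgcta
Rpl7l1 (chr17:46782642-46782671, minus strand): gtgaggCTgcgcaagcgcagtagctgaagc
The promoter table held 59 of the 80 genes. A run of at least 8 pyrimidines was found in 29 of the 59 (49.2%), against 16.1% of the 27025 genes in the table. The letters CTTTCC stood in the 300-base promoter window of 50.8% of the 59 on either strand and 40.7% on the gene's own strand, against 29.3% and 16.01% of all genes. For TCTTTC the shares were 40.7% on either strand and 30.5% on the own strand, against 24.5% and 13.2%. The windows of both strings can lie inside a pyrimidine run, so the counts overlap. In Rps6, which encodes the small-subunit protein phosphorylated by the S6 kinases, the run began 1 base before the annotated start. In Rpl5, whose protein binds the 5S rRNA, and in Rpl7l1 no run of more than 3 letters lay there. Where transcripts start in this tissue was not measured, so a short run at the annotated start does not show that a gene lacks the tract.

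To see how far the genes moved together, the deviation of each gene from its mean over the 6 group means was taken on the log2(normalized count + 1) scale, and the mean deviation of the 80 genes was called the library score. AS_sal_40 had a score of 0.85, con_sal_114 of 0.37, con_sal_104 of 0.35 and con_dex_116 of 0.27. The other 12 libraries lay between -0.25 (PS_dex_6) and 0.05 (PS_dex_34). All 80 genes were above their mean in AS_sal_40 and in con_sal_114, 79 in con_dex_116 and 78 in con_sal_104. AS_sal_40 was the highest of the 16 libraries for 75 genes, con_sal_104 for Rps2, Rpsa, Rps4l and Rpl29, and PS_dex_64 for Rps10. The lowest library was PS_dex_6 for 34 genes, PS_dex_64 for 15 and PS_sal_68 for 11.

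**Figure D1:**
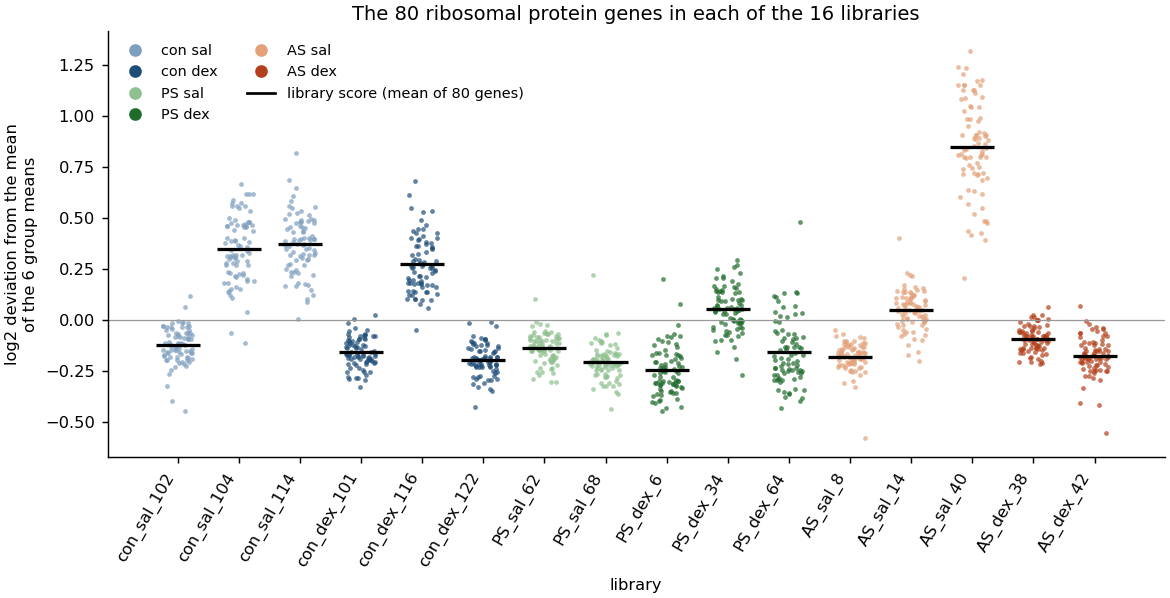
Deviation of each of the 80 ribosomal protein genes (points) from its mean over the 6 group means, on a log2 scale, in the 16 libraries; the black line is the library score, the mean of the 80 genes. The genes in AS_sal_40 run from 0.21 to 1.32, and those of con_sal_104, con_sal_114 and con_dex_116 also lie mostly above 0.

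The groups overlapped in this score. It was 0.20 ± 0.28 (SD, n = 3) in control saline, -0.025 ± 0.26 (SD, n = 3) in control DEX, -0.17 ± 0.048 (SD, n = 2) in PS saline, -0.12 ± 0.15 (SD, n = 3) in PS DEX, 0.24 ± 0.54 (SD, n = 3) in AS saline and -0.13 ± 0.058 (SD, n = 2) in AS DEX. The 3 AS saline libraries were at -0.18, 0.05 and 0.85, and the 3 control saline libraries at -0.12, 0.35 and 0.37, so in both groups the libraries of a single group differed by more than the group means did. The subunits moved alike, with means of 0.84 for 40S and 0.86 for 60S genes in AS_sal_40 and of -0.23 and -0.26 in PS_dex_6. Scaling did not change the order of the leading library. The score of AS_sal_40 was the highest under each of the 7 other pseudocounts, scalings and corrections tried. Its smallest value, 0.59, came with the trend on transcript length removed. Library weights fitted by limma over all genes, lower for libraries far from their group, were lowest in AS_sal_40 (0.18), con_sal_104 (0.32) and con_sal_114 (0.43). The weight of con_dex_116 was 0.58 and the highest was 5.66 (AS_sal_14). Low weights were not limited to libraries of high score. PS_dex_64 (score -0.15) had a weight of 0.56 and PS_dex_6 (score -0.25) of 0.65. Whether the shift of the libraries of high score is particular to the ribosomal protein genes was not tested.

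Markers of other cells were read beside the score. The 7 serotonin neuron markers, Tph2 and Slc6a4 among them, were present in every library, at a sum of 292830 to 443115 normalized counts, and the sum was highest in AS_sal_40 (443115), con_sal_104 (439585) and con_dex_116 (432926) but was 328991 in con_sal_114. The 4 hemoglobin genes summed to 2185 in AS_sal_40, 2034 in con_sal_114, 1757 in con_dex_116 and 1077 in con_sal_104, and to between 445 and 1015 in the other 12 libraries. The 8 microglia markers summed to 13034 in AS_sal_40 and to at most 9644 elsewhere. The astrocyte sum was also highest in AS_sal_40 (150616) and ran from 117324 to 139767 in the others. Sums for endothelium, choroid plexus, ependymal cilia, myelin and dopamine neurons ran from 5376 to 8774, 265 to 1698, 1839 to 19700, 129573 to 216583 and 109572 to 158328 over the libraries. For myelin AS_sal_40 was at 151089, within the range of the others. At 0 in at least 1 library was Ttr alone among the markers measured. The part of these cells in the ribosomal protein values was not tested.

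**Figure D2:**
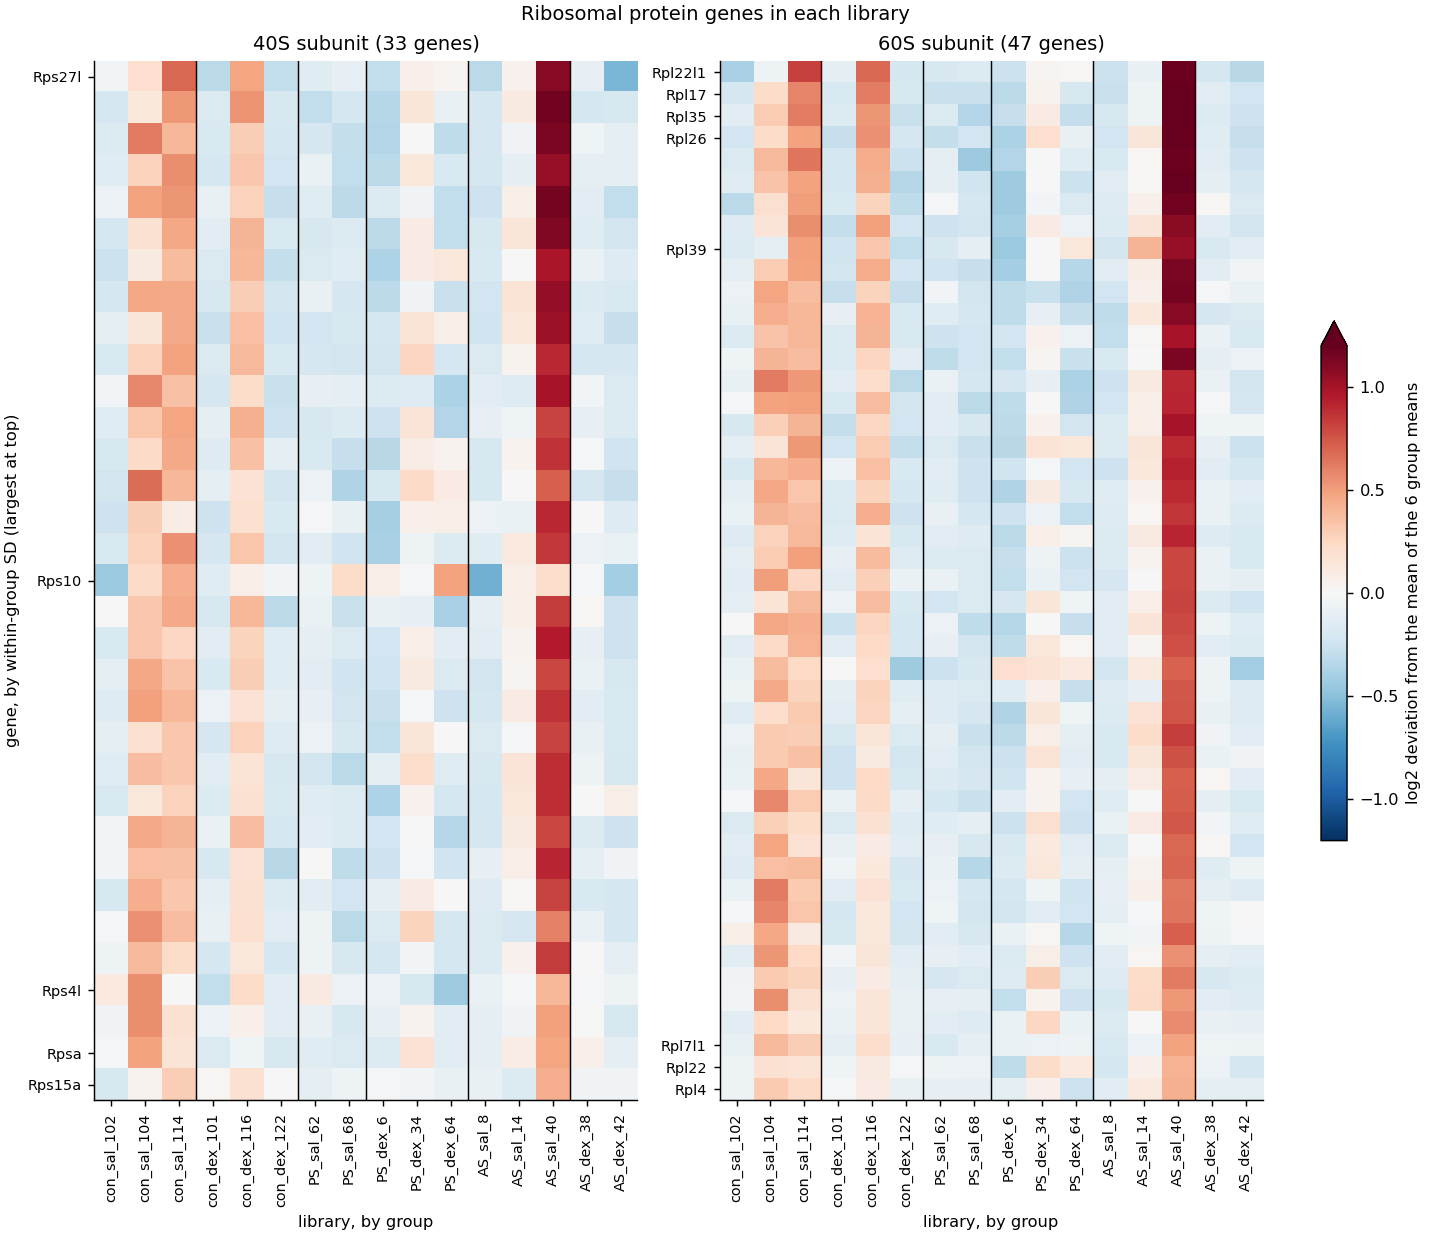
Deviation of every ribosomal protein gene (rows, 40S left and 60S right, ordered by within-group SD) in every library (columns, with lines between groups), colored on a log2 scale from blue (below the mean of the 6 group means) to red (above), with names for the genes of largest and smallest SD and of largest SD around the score. The column of AS_sal_40 is red in all 80 rows, and Rps10 and Rps4l break the common pattern.

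The genes differed in how far they spread. The SD within groups, pooled over the 6 groups, had a median of 0.31 on the log2 scale and ran from 0.17 to 0.51, whereas the median over all 14504 genes was 0.21. The median gene of the family stood at percentile 73.8 of all genes in this SD, and 76 of the 80 were above percentile 50. Between the highest and the lowest library the genes differed by 1.55-fold to 3.17-fold, with a median of 2.23-fold. Of the sum of squares within groups, 58.6% lay in the AS saline group, 18.3% in control saline, 14.7% in control DEX, 6.89% in PS DEX and under 1% in each of the other two. Without AS_sal_40 the median SD was 0.22, at percentile 61.1 of all genes.

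Most of the spread was shared. The first principal component of the within-group deviations held 91.4% of their sum of squares and the second 3.66%. As a description over 16 libraries, the deviations of a gene correlated with the mean of the other 79 genes at a median Pearson r of 0.97, and 70 genes were above 0.9. Without AS_sal_40 the median was 0.93. The slope of a gene on that mean was 0.98 at the median and ran from 0.48 to 1.55, so some genes moved by more and some by less than the family.

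The 5 genes with the largest SD were Rpl22l1 (0.51), a relative of Rpl22, Rpl17 (0.48), Rpl35 (0.45), Rpl26 (0.44) and Rps27l (0.44). The level of Rpl17 was 30466 normalized counts in AS_sal_40, 18636 in con_dex_116, 18247 in con_sal_114 and 14164 in con_sal_104, and lay between 9766 and 12504 in the others. Its slope of 1.55 was the steepest of the 80. The 5 genes with the smallest SD were Rpl4 (0.17), Rps15a (0.19), Rpsa (0.20), Rpl22 (0.20) and Rpl7l1 (0.21). Rpl4 was at 26862 in AS_sal_40 and between 16815 and 24832 elsewhere. Its percentile among all genes was 37.0. SD was lower in genes with longer transcripts across the 80 genes (Spearman rho -0.49, a description over genes that share the same libraries). Rps15a, Rpl22 and Rpsa had transcripts of 5130, 2048 and 1769 bases, against a median of 830. Rps20 went against this trend, with 3706 bases and an SD of 0.34, above the family's median. Lengths are medians over annotated transcripts of a gene, and which transcripts are made in this tissue was not measured.

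The 5 members below strayed most from the family, as measured by the SD around the score. They were Rps10 (0.27), Rpl22l1 (0.27), Rps4l (0.24), Rpl39 (0.21) and Rpl17 (0.20), against a median of 0.11. Rps10, a small-subunit protein gene (ENSMUSG00000052146.16, GRCm38 chromosome 17, 27630418 to 27636669), was the least like the others, with r = 0.63. It was at 155 normalized counts in PS_dex_64, 150 in con_sal_114, 130 in con_sal_104 and PS_sal_68, and 128 in AS_sal_40, and was lowest in AS_sal_8 (74). It was thus the only gene whose top library was one of the DEX-treated stressed animals, and at a minimum of 82 reads it was also the lowest gene of the family.

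Rps4l (ENSMUSG00000063171.4, chromosome 6, 148354656 to 148355598), a relative of the X-linked Rps4x that the annotation classes as a transcribed processed pseudogene, followed with r = 0.64, and 0.46 without AS_sal_40. It was highest in con_sal_104 (2182) and lowest in PS_dex_64 (1099), with 1949 in AS_sal_40. Rpl39 (ENSMUSG00000079641.3, chromosome X, 37082520 to 37085402), which encodes one of the smallest ribosomal proteins, had r = 0.85. It was at 5569 in AS_sal_40, 3806 in con_sal_114, 3572 in AS_sal_14, 3369 in con_dex_116 and 2963 in PS_dex_64, and at 2502 in con_sal_104, where the family was high. Rpl22l1 (ENSMUSG00000039221.10, chromosome 3, 28805436 to 28807424) was at 7634 in AS_sal_40, 5951 in con_sal_114 and 5423 in con_dex_116, but was at 3232 in con_sal_104 and at most 3448 in the others. The libraries of high score were therefore not alike in which genes led.

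**Figure D3:**
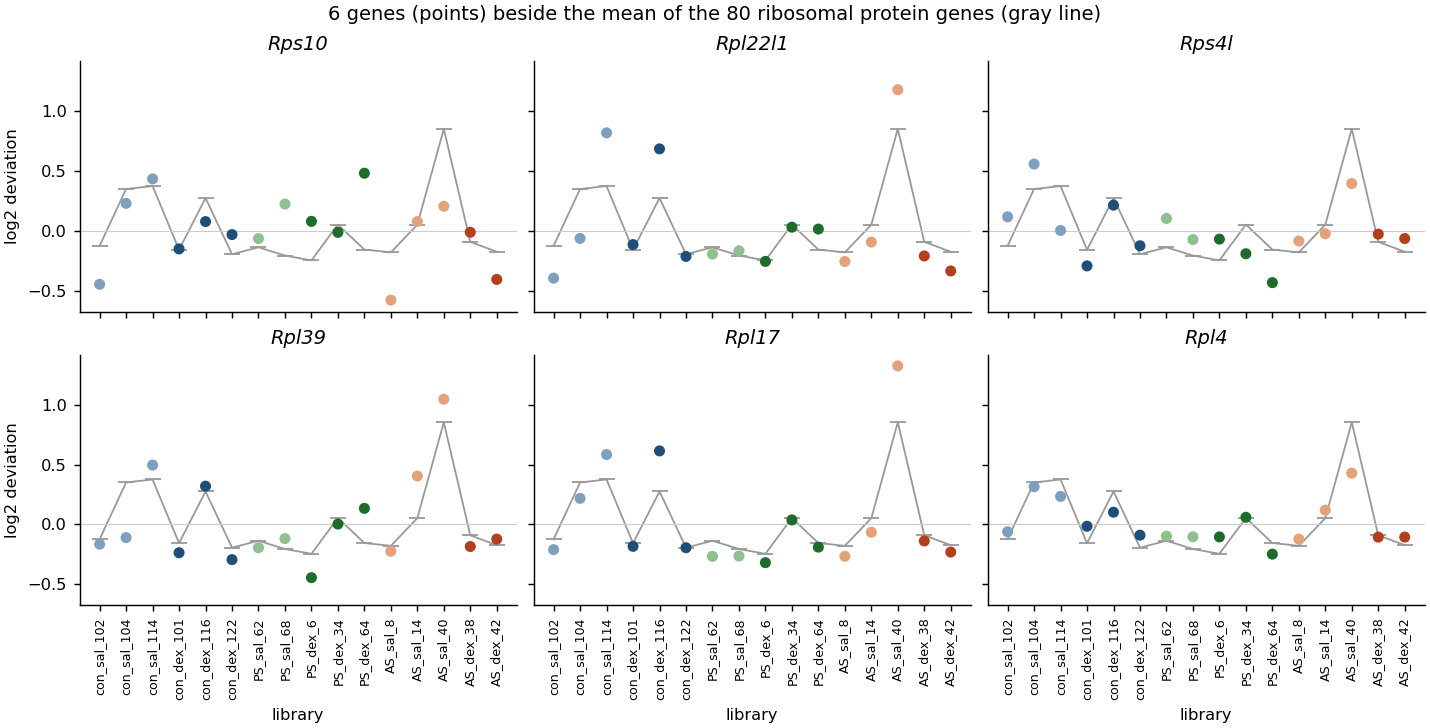
Deviation (log2, vertical axis) of 6 genes in the 16 libraries (points, colored by group), beside the library score of the 80 genes (gray line). Rpl22l1 and Rpl39 lie below the line in con_sal_104 and above it in con_sal_114 and AS_sal_40, while Rpl4 follows the line with smaller steps.

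The trend with the GC content of the transcripts differed between these libraries. Across the 80 genes, which share their libraries and are not independent replicates, the deviation in con_sal_104 was higher with higher GC content (Pearson r 0.58, Spearman rho 0.57), and it was lower in con_sal_114 (-0.32 and -0.23), con_dex_116 (-0.35 and -0.30) and AS_sal_40 (-0.16 and -0.16). The difference between con_sal_104 and con_sal_114 correlated with GC content at 0.55 (rho 0.48). Over all other genes with an annotation, the slope of the deviation per 10 points of GC content was also positive in con_sal_104 (0.23) and negative in con_sal_114 (-0.10), con_dex_116 (-0.14) and AS_sal_40 (-0.12). The GC trend of each library was then removed, a step chosen after the data were seen. The score was then 0.89 in AS_sal_40, 0.40 in con_sal_114, 0.32 in con_sal_104 and 0.30 in con_dex_116. With transcript length the deviation had Pearson r -0.39 and Spearman rho -0.48 in AS_sal_40, and -0.20 and -0.35 in con_sal_114. The values were -0.19 and -0.29 in con_dex_116, and -0.12 and 0.13 in con_sal_104. With the length trend removed instead, the scores were 0.59 in AS_sal_40, 0.26 in con_sal_114, 0.21 in con_sal_104 and 0.22 in con_dex_116. The genes were also split by the pyrimidine run at the annotated start. In AS_sal_40 the median deviation was 0.89 (0.21 to 1.24) in the 29 genes with a run of at least 8 letters. It was 0.87 (0.42 to 1.21) in the 30 with a shorter run. Because the starts used in this tissue were not measured, this split cannot tell genes with a tract from genes without one.

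**Figure D4:**
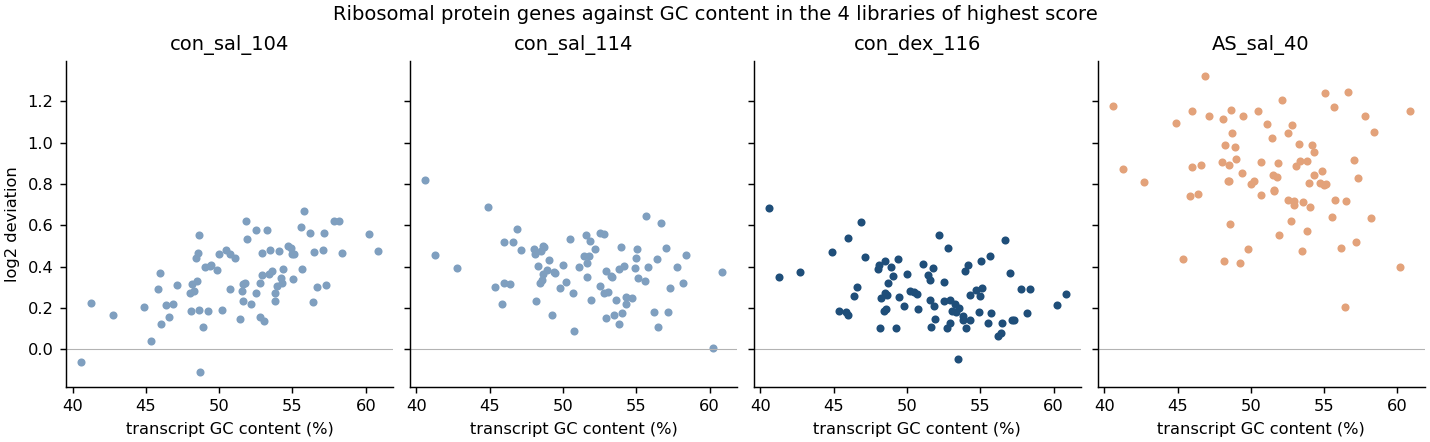
Deviation of the 80 genes (log2, vertical axis) against the GC content of their transcripts (percent, horizontal axis) in con_sal_104, con_sal_114, con_dex_116 and AS_sal_40. The points slope upward in con_sal_104 (r = 0.58) and downward in con_sal_114 and con_dex_116, and in AS_sal_40 the slope is slight (r = -0.16).

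Against this spread, no ribosomal protein gene passed the test in any of the 13 comparisons (0 of 80, limma over all libraries, adjusted p under 0.1), and DESeq2 and edgeR also called 0 of them in all 13. Over the 13 comparisons together DESeq2 called 0.981% and edgeR 0.533% of the tests made on all genes. The smallest adjusted p of any of the 80 over all settings was 0.109, for DEX in AS with library weights.

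In controls, DEX was followed by lower values of nearly the whole family, none past the test (0 of 80, against 1.26% of all genes). The median log2 fold change was -0.23, with 79 of 80 below 0, against a median of 0.0042 over all genes. At an unadjusted p under 0.05 there were 2 genes, against 12.1% of all genes. Rpsa, the 40S protein also known as the laminin receptor, was at 18559, 26387 and 21215 normalized counts in saline and at 16784, 18255 and 16572 in DEX, a log2 fold change of -0.34 (SE 0.16, limma adjusted p 0.399). Every DEX library of Rpsa was below every saline library. It was the only gene of the 80 that separated the groups downward (7.43% of all genes did), and 0 did so upward (8.51%). Rpl18 changed by -0.40 (SE 0.18, limma adjusted p 0.399), from 7345 ± 1536 to 5503 ± 790 (SD, n = 3 each), and con_dex_116 (6414) lay above con_sal_102 (5780). Rpl8 followed at -0.33 (adjusted p 0.496).

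In PS mice the family stayed near 0 after DEX, with a median of 0.058, 24 of 80 below 0 and 0 called (0.703% of all genes). No gene had an unadjusted p under 0.05 (4.69% of all genes). Separated upward were 5 genes, Rpl13a, Rpl15, Rpl7l1, Rps23 and Rps3 (11.2% of all genes), and downward 2 (10.1%). Rpl13a, a 60S protein also known for binding mRNAs outside the ribosome, was at 431 and 452 in saline and at 577, 594 and 559 in DEX, a log2 fold change of 0.38 (SE 0.25, limma adjusted p 1). Rps4l, at -0.25, and Rps23, at 0.25, were next (both adjusted p 1).

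In AS mice all 80 genes were below 0 after DEX, at a median of -0.37 (range -0.59 to -0.10), and 0 were called (0.689% of all genes). None had an unadjusted p under 0.05 (9.36% of all genes), while at that level DESeq2 gave 17 of the 80 (10.7% of all genes in that tool) and edgeR 1 (9.42%). The groups separated downward in 7 genes, Rpl21, Rpl30, Rpl5, Rpl8, Rps14, Rps3 and Rps3a1 (14.8% of all genes), and upward in 0 (15.1%). Rpl21 went from 11820 ± 3164 (SD, n = 3) to 8706 ± 98.1 (SD, n = 2), -0.41 on the log2 scale (SE 0.19, limma adjusted p 0.534). Rpl5 was at 7726, 12786 and 6657 in saline and at 6492 and 6171 in DEX (-0.46, SE 0.24, limma adjusted p 0.545), and Rpl39 changed by -0.56 (adjusted p 0.555). Farthest below the family's median were Rps27l (-0.59), Rpl26 (-0.58) and Rpl39, and farthest above it Rps15a (-0.10), Rps10 (-0.11) and Rpl7l1 (-0.13).

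Averaged over the 3 phenotypes, the DEX effect was below 0 in all 80 genes, at a median of -0.18 (range -0.31 to -0.014), and 0 were called although 4.31% of all genes were. At an unadjusted p under 0.05 there were again 0 with limma (14% of all genes), 7 with DESeq2 (15%) and 1 with edgeR (13.8%). The smallest p belonged to Rps4l (-0.23, SE 0.11, limma adjusted p 0.37), Rpl14 (-0.31, adjusted p 0.396) and Rpl29 (-0.21, adjusted p 0.397). Rpl14, Rpl36 (-0.31) and Rps27l (-0.29) lay farthest below the median, and Rps15a (-0.014), Rps10 (-0.038) and Rpl15 (-0.046) farthest above it.

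Among saline libraries the family was lower in PS than in control. The median log2 difference was -0.39, 79 of 80 genes were below 0, and 0 were called (0% of all genes). In 43 genes both PS libraries lay below all 3 control libraries (14.2% of all genes), and in 0 above them (14.3%). These genes move together from library to library and are not independent counts. At an unadjusted p under 0.05 was 1 gene (7.67% of all genes), Rpl7a, a 60S protein gene, which was at 9462, 14228 and 11803 in control and at 8245 and 7955 in PS (-0.53, SE 0.22, limma adjusted p 0.571). Rpl18 (-0.44) and Rpsa (-0.37) followed (both adjusted p 0.571). DESeq2 gave 9 genes at that level (8.11% of all genes), and edgeR 1 (7%).

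AS saline libraries differed little from control saline at the median (0.046, 26 of 80 below 0), with 0 called (0% of all genes), 0 at an unadjusted p under 0.05 (2.39% of all genes), and no gene whose groups were separated (2.38% of all genes upward and 2.11% downward). Rpl39 had the smallest p (0.33, SE 0.27, limma adjusted p 0.998), followed by Rps26 (-0.22) and Rps29 (0.20). Between the stressed groups, AS saline was higher than PS saline at a median of 0.43, with 79 of 80 genes above 0 and 0 called (0% of all genes). In 18 genes the 3 AS libraries lay above both PS libraries (11% of all genes), and in 0 below (12.7%). One gene had an unadjusted p under 0.05 (3.41% of all genes), Rps23, a protein of the decoding center, which was at 7255, 11986 and 5697 in AS and at 5589 and 5210 in PS (0.55, SE 0.24, limma adjusted p 0.728). DESeq2 gave 33 genes at that level (4.49% of all genes) and edgeR 6 (3.61%). Rplp1 (0.48) and Rpl21 (0.41) were next. These 3 comparisons share their saline groups pairwise, as does each of them with the DEX comparisons.

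Among DEX libraries the medians were closer to 0. PS against control was at -0.098 (0 called, 0% of all genes, and 0 at an unadjusted p under 0.05, 1.23% of all genes), led by Rpl27 (-0.24), Rpl13a (0.23) and Rpl19 (-0.23). AS against control was at -0.11 (0 called, 0.00689% of all genes, and 0 at an unadjusted p under 0.05, 3.5%), led by Rpl5 (-0.25), Rpl22l1 (-0.39) and Rps6 (-0.23). AS against PS was at -0.0051 (0 called, 0% of all genes, and 0 at an unadjusted p under 0.05, 1.7%), led by Rpl13a (-0.40), Rps10 (-0.39) and Rps14 (-0.28).

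Whether the DEX effect differed between phenotypes was tested by the interactions. For PS against controls the median difference was 0.28, with all 80 genes above 0, 0 called (0% of all genes) and 0 at an unadjusted p under 0.05 (2.1% of all genes), led by Rpsa (0.47), Rpl13a (0.63) and Rps14 (0.60). For AS against controls it was -0.15, with 0 called (0%) and 0 at an unadjusted p under 0.05 (4.02%), led by Rpl5 (-0.35), Rps24 (-0.46) and Rpl22l1 (-0.55). For AS against PS it was -0.41, with 79 of 80 below 0, 0 called (0%) and 1 at an unadjusted p under 0.05 (2.9%). That gene was Rpl13a (-0.83, SE 0.35, limma adjusted p 0.869), followed by Rpl21 (-0.58) and Rps23 (-0.66). At that level DESeq2 gave 1, 0 and 5 genes in the 3 interactions (2.35%, 4.39% and 3.39% of all genes), and edgeR 0, 0 and 2 (2%, 4.03% and 2.92%).

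These medians leaned on single libraries. Without AS_sal_40 the median for DEX in AS went from -0.37 to -0.069, for the DEX average from -0.18 to -0.080, for AS against PS saline from 0.43 to 0.12 and for AS against control saline from 0.046 to -0.26. For the DEX effect in AS it went from -0.41 to -0.11 against PS and from -0.15 to 0.16 against controls. AS_sal_8, the saline AS library of lowest score, acted the other way. Without it DEX in AS was at -0.58, AS against PS saline at 0.64 and AS against control saline at 0.26, and the counts at an unadjusted p under 0.05 were 54 genes for DEX in AS (18.2% of all genes in that fit) and 61 for AS against PS saline (13.9%), with 0 called in both.

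The control libraries mattered too. PS against control saline was at -0.56 without con_sal_102, where 29 genes had an unadjusted p under 0.05 (18.1% of all genes), and at -0.30 without con_sal_104. In the same comparison 36 genes were at that level without AS_sal_40 (13.9% of all genes), a library that enters it through the shared estimate of the spread alone, since the median stayed at -0.39. DEX in controls ran from -0.39 without con_dex_116 to -0.14 without con_sal_114. Leaving out con_dex_116 moved PS against control and AS against control among DEX libraries from -0.098 to 0.051 and from -0.11 to 0.031. For DEX in PS the median was -0.026 without PS_dex_34 and 0.13 without PS_dex_6. In 0 of these fits was any of the 80 genes called.

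**Figure D5:**
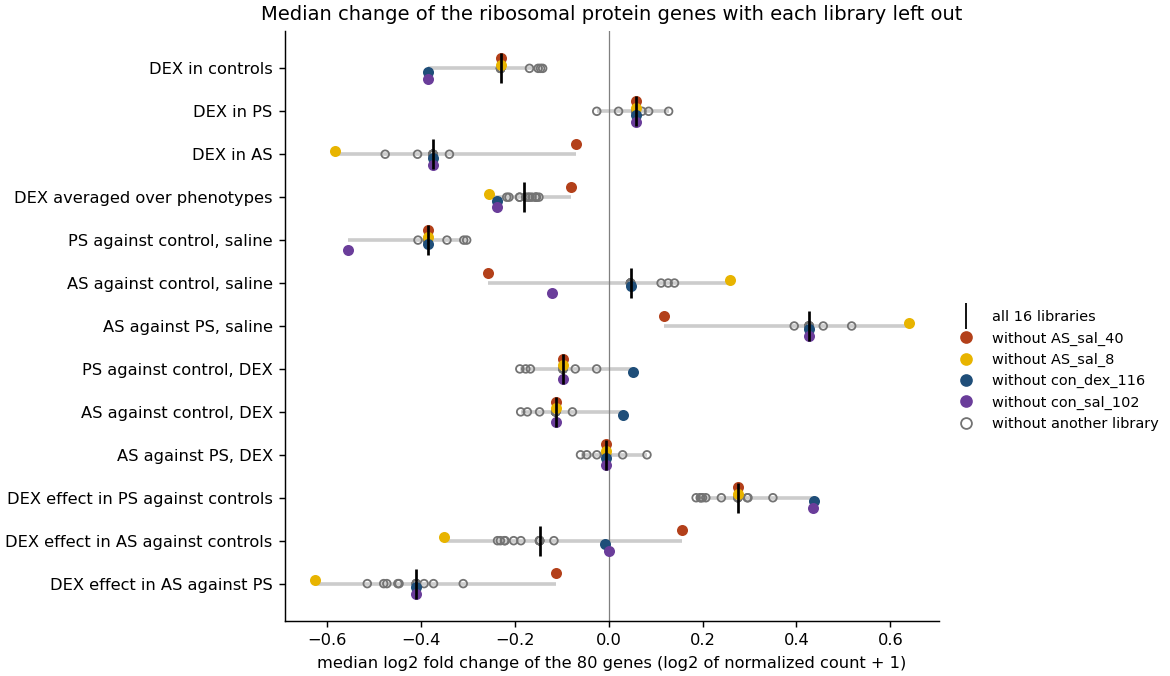
Median log2 fold change of the 80 genes (horizontal axis) in each of the 13 comparisons (rows), with all libraries (black bar) and with each of the 16 libraries left out in turn (circles, with 4 libraries colored). Without AS_sal_40 the value for DEX in AS moves from -0.37 to -0.069, and AS against control saline lies on both sides of 0.

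Several members with known roles outside the ribosome or as paralogs were read side by side. Rpl5 and Rpl11, which with the 5S rRNA bind Mdm2 when ribosome assembly fails, had log2 fold changes of 0.17 and 0.17 after DEX in PS and of -0.46 and -0.31 in AS, with adjusted p of 1 in PS and 0.545 and 0.584 in AS. The stalk genes Rplp0, Rplp1 and Rplp2 changed by -0.15, -0.19 and -0.25 in the DEX average, and Rps27a, which is made as a fusion with ubiquitin, by -0.12. Rps6 was at -0.24 in the average. Of the paralogs, Rpl22l1 was at -0.55 in AS after DEX against -0.23 for Rpl22, Rps27l at -0.59 against -0.33 for Rps27, Rpl7l1 at -0.13 against -0.35 for Rpl7, and Rps4l at -0.14 against -0.35 for Rps4x. The differences between paralogs were not tested, and none of these genes passed the test.

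Other genes of translation were taken from 5 lists. Of the 5 measured ribosomal proteins with other symbols, such as Fau, 0 were called in any comparison, and the median was -0.14 in the DEX average. The 25 genes listed for translation elongation and for mRNAs with pyrimidine tracts were at -0.11 in the DEX average. They were at -0.28 in PS against control saline, with 0 called. The 26 initiation factors were at -0.099 and -0.18, and the 40 ribosome biogenesis genes at -0.048 and -0.096, also with 0 called in each. The smallest p in the average belonged to Fau (-0.28, limma adjusted p 0.339), to Eef2k (0.29, 0.174) and Eef1g (-0.22, 0.391), to Eif6 (-0.19, 0.332) and Eif2b3 (-0.22, 0.361), and to Bysl (-0.25, 0.188) and Ubtf (-0.17, 0.2).

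In the list of regulators of mTORC1 and of mRNAs with pyrimidine tracts, 2 of 18 measured genes were called in the DEX average (4.31% of all genes were), both higher. The list as a set was not tested. Ddit4, an inhibitor of mTORC1 that glucocorticoids are known to induce, was at 1570 to 1992 normalized counts in the 8 saline libraries and at 2260 to 3516 in the 8 DEX libraries, with no overlap. Its log2 fold change was 0.73 (SE 0.085, limma adjusted p 0.000142), and it was called in each phenotype (0.72, 0.82 and 0.66 with limma adjusted p of 0.0229, 0.03 and 0.0994). In the average the call held without any single library, at adjusted p up to 0.00114, whereas within AS it was lost in 14 of the 16 such fits, all but those without con_sal_104 and con_dex_116 (adjusted p 0.0404 to 0.953). In controls it was lost without con_dex_101 or con_dex_122 (0.135 and 0.157), and in PS without PS_sal_62, PS_sal_68 or PS_dex_34 (0.181, 0.339 and 0.152). The direction was upward in each of these fits of Ddit4. Sesn1, a sestrin that also restrains mTORC1, changed by 0.38 in the average (SE 0.073, limma adjusted p 0.00839). Unlike Ddit4, it was not called within any single phenotype in the main fit or in the fits without 1 library. With other processing settings Sesn1 was called within a phenotype in 2 cases. Sesn1 was at 1645 to 2161 in saline and 2212 to 2717 in DEX libraries, again with no overlap. How many of all genes had no overlap between the 8 saline and 8 DEX libraries was not counted. Over all settings run, a call of Ddit4 or Sesn1 made in the main fit was lost 25 times. Most of these losses came from the fits without 1 library given above, and the rest from other processing settings.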

How the data were processed

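Polyadenylated RNA of the DRN was sequenced as 16 libraries. Per the labels and their processing notes, reads were trimmed with fastp 0.20.1, aligned to GRCm38 with HISAT2 2.2.1, counted per gene with featureCounts (Subread 2.0) and normalized with DESeq2 1.36.0. The settings for strand and multiply mapping reads are not given in the sources used here. The authors deposited gene counts divided by a size factor per library (signal values, called normalized counts here). Whole reads were recovered from their steps with a tolerance of 0.01, and gave 38207157 to 62447298 reads per library. The precision of a gene is limited by 2 or 3 libraries per group. The tables of the authors' own comparisons, which hold fold changes and p-values, were not used.

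Values were tested as log2(normalized count + 1) with limma 3.58.1 (R 4.3.3, eBayes with trend) on 6 group means over all 16 libraries. P-values were adjusted by Benjamini-Hochberg over the 14504 genes listed, and a call is an adjusted p under 0.1. Fold changes are on the log2(value + 1) scale. DESeq2 1.42.0 and edgeR 4.0.16 were run on the recovered reads as alternatives, beside other pseudocounts, filters, scalings, a length correction, library weights, robust eBayes, fits of the compared groups and fits without each library. The code was tested on simulated data. The labels do not say how samples were pooled or paired, and p-values measure the spread between these libraries.

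The members and the gene lists were chosen with earlier results of these data known. Genes were named by rule. The rule took the 3 smallest p per comparison, the 5 largest and 5 smallest SD, the 5 largest SD around the score, the 3 farthest from the median on each side for DEX in AS and the DEX average, the 5 highest and 3 lowest levels per kb, the 2 smallest p per list, and a set of paralogs and members with known roles. Genes named as groups that do not overlap, as top libraries, as the called Ddit4 and Sesn1, and the compared Rpl22, Rps27, Rpl7 and Rps4x, were named after their values were seen. Some genes that these rules or counts hold are not reported here by name. Levels per kb, GC content and shared windows used GENCODE vM21 on GRCm38. Promoter letters are from RefSeq on GRCm38.p6.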

Additional observations from a re-analysis of the deposited data

How the results depend on the processing

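The count of ribosomal protein genes called stayed at 0 in all 13 comparisons under every alternative run. The median log2 fold change for DEX in AS ran from -0.58 (without AS_sal_8) to -0.069 (without AS_sal_40) as libraries were left out, and that of AS against PS saline from 0.12 to 0.64 without the same libraries in turn. The median SD within groups ran from 0.22 (without AS_sal_40) to 0.33 (without a PS saline library). No result changed direction with a call. The other medians moved by less than the pooled SD of the score within groups, but some changed sign. Without AS_sal_40 AS against control saline went from 0.046 to -0.26. The DEX effect in AS against controls went from -0.15 to 0.16. The correction for GC content was chosen after seeing the data. Fits of the compared groups alone were run for the comparisons of 2 groups. They were not run for the interactions, and the DEX average uses all groups. No paired analysis was possible because the groups share no replicate numbers. The pooled SD of the score within groups was 0.31 on the log2 scale, with 2 or 3 libraries per group. The cause of the shifts with AS_sal_40 was not tested.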
